A study of Mus musculus with 9 samples.

Results

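The 10 genes described here encode parts of the fetal acetylcholine receptor of muscle, the proteins that gather it at the synapse, and the machinery that releases and recovers calcium when a muscle cell is excited. They were Chrna1, Chrnb1, Chrnd, Chrng, Musk, Rapsn, Ryr1, Cacna1s, Casq2 and Atp2a1, and every probe set annotated to 1 of these symbols alone was taken, which gave 13 probe sets of 45037 tested and 10 genes of 18193. Chrng was read by 3 probe sets, Ryr1 by 2 and each of the other genes by 1. In a muscle cell, acetylcholine released by the motor nerve opens a ligand-gated channel built of alpha, beta, delta and, before birth, gamma subunits. The depolarization that follows is sensed in the transverse tubule by a calcium channel that opens the ryanodine receptor of the sarcoplasmic reticulum, from which calcium flows to the sarcomere, and a calcium ATPase then pumps it back. In the embryo the genes of this apparatus are switched on with myotome differentiation, under the myogenic regulators of the MyoD family and MEF2 factors, before nerves arrive.

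Transcripts were measured on Affymetrix arrays in cells sorted from the hypaxial side of mouse interlimb somites at embryonic day 9.5, in 3 groups of 3 arrays. PAX3-FKHR/GFP cells were GFP positive and carried a Pax3 allele encoding PAX3-FKHR, a fusion of the paired-box factor PAX3 with the forkhead factor FKHR, beside a Pax3 allele that carries GFP, and so had no intact Pax3 allele. GFP/+ cells were GFP positive and kept 1 intact Pax3 allele beside the GFP allele. GFP- cells were the GFP negative cells of the dissected tissue, whose genotype the labels do not give, and on which the methods differ, since the statistical section places them in GFP/+ embryos while wild-type embryos stand among the groups hybridized. The PAX3-FKHR allele is conditional and was recombined by PGK-Cre, which acts in all cells, and tissue of many embryos was pooled, so that the arrays of a group are replicates of pools. Both GFP positive groups were defined by activity of the Pax3 locus, which is shared by the dermomyotome and by neural crest cells, and the methods allow for some crest cells in the tissue.

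Promoters are shown for the 5 genes that were called in GFP/+ against GFP- cells, since these are the genes on which the comparisons below turn. RefSeq windows of the build GRCm38.p6, from 250 bases before to 50 after a gene's start, were found for 8 of the 10 genes, Chrnd and Rapsn being the others. The sequences give the 250 bases before the start, 5′ to 3′ on the gene's strand, and capitals mark each match to the E-box CANNTG, the core motif bound by the MyoD family. Atp2a1 is at chr7:126463074-126463323 on the minus strand, Chrna1 at chr2:73580339-73580588 on the minus strand, Chrng at chr1:87205561-87205810 on the plus strand, Chrnb1 at chr11:69795938-69796187 on the minus strand and Ryr1 at chr7:29125152-29125401 on the minus strand.
Atp2a1: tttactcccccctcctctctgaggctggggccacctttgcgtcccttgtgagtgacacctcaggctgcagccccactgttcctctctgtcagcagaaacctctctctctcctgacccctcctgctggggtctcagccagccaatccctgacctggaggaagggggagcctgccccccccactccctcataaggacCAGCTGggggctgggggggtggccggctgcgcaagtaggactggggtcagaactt
Chrna1: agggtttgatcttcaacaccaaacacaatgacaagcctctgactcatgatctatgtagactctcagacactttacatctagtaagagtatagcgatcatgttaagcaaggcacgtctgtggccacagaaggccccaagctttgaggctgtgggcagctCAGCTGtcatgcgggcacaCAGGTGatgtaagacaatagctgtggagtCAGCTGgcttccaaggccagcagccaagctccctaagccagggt
Chrng: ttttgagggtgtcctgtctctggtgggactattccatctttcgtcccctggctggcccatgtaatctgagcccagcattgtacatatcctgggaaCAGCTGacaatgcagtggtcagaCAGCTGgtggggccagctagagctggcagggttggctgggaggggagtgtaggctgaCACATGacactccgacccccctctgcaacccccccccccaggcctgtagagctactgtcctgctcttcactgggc
Chrnb1: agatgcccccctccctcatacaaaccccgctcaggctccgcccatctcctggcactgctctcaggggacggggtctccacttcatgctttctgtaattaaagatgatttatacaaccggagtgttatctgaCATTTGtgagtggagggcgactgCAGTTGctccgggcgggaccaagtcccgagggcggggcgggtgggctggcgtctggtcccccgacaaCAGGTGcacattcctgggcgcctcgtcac
Ryr1: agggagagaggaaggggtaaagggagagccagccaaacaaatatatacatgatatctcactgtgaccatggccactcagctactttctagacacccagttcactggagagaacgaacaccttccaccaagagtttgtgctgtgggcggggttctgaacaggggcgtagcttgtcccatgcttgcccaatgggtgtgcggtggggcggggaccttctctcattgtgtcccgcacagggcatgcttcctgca

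The E-box CAGCTG, a palindrome read alike on both strands and also a CANNTG match, was found in 5 of the 8 windows, against 16.3% of 32817 RefSeq promoter windows of the same length. Chrna1 had it at -92 and -44 from the start, Chrng at -155 and -132, Atp2a1 at -55, Musk at -68 and Cacna1s at -123. Chrnb1 and Chrna1 had the E-box CACCTG, searched on both strands and printed as CAGGTG, at -29 and -73, and it was in 2 of the 8 windows against 20.2% of all windows. Any CANNTG was in 7 of 8 windows against 72.3% of all, Ryr1 having none in its window, and each match in the 5 genes shown lay before the start. The MEF2 motif matched 1 of the 8 windows, that of Casq2, against 3.19% of all windows. These matches describe letters in a window and no binding was measured.

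The arrays had median log2 values of 4.63 to 4.68 and correlated at 0.996 to 0.998 within a group. The medians are alike by the construction of RMA, and the 3 arrays per group limit the precision. Pax3 itself gave 8.25, 8.31 and 8.30 in PAX3-FKHR/GFP cells, 9.06, 9.29 and 9.24 in GFP/+ cells and 4.48, 4.82 and 4.20 in GFP- cells. Pax3 thus separated both GFP positive groups from GFP- cells, and which part of its transcript the probe set reads was not looked up, so the alleles are not checked by it. Of 9 dermomyotome markers 8 were higher in GFP/+ than in GFP- cells. The GFP- cells held markers of several other cell types, erythroid markers summing on the linear scale to 1891 to 2210 in PAX3-FKHR/GFP cells, 1355 to 1420 in GFP/+ cells and 35867 to 36107 in GFP- cells. Cardiac markers summed to 161 to 176 in PAX3-FKHR/GFP cells, 179 to 184 in GFP/+ cells and 803 to 858 in GFP- cells. In such bulk samples fewer cells of a type and less RNA per cell cannot be told apart.

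Of the 13 probe sets, between 7 and 9 lay above the array's median in PAX3-FKHR/GFP cells, 8 in every GFP/+ array, and 4 or 5 in GFP- cells. The probe sets of Musk and Cacna1s and both weaker probe sets of Chrng lay under the median on all 9 arrays, and that of Rapsn on 8 of them. Those of Chrna1 and Chrnb1 and the weaker probe set of Ryr1 lay under it on every GFP- array. Their folds over GFP- cells thus rest on such values. No detection calls were used, so whether these low values stood above background was not tested, and a fold given over them is a ratio of RMA values.

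PAX3-FKHR/GFP cells were compared with GFP/+ cells to ask what the fusion allele does to these genes among cells with an active Pax3 locus. Atp2a1 fell to 58.8% of its GFP/+ level (95% interval 52.0 to 66.5%), and no other of the 13 probe sets was called. The call rule was an adjusted p under 0.05 and a log2 difference of at least 0.5, or 1.41-fold, and it called 1.36% of all probe sets in this comparison, 0.884% as higher and 0.473% as lower. By ranges alone, the groups did not overlap in 7 of the 13 probe sets, 6 of them lower (Chrna1, Chrng, Casq2, Atp2a1 and both of Ryr1) and 1 higher (Rapsn), where 13.1% of all probe sets did not overlap, 6.72% lower and 6.4% higher. The same 7 had an unadjusted p under 0.05, as 10.1% of all probe sets did, and the adjusted p alone passed 1 of 13, against 1.78%. The median difference over the 10 genes was -0.19 log2 units, beside -0.0015 over all genes.

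GFP/+ cells were compared with GFP- cells to ask which transcripts mark cells with an active Pax3 locus. Here 6 of the 13 probe sets, of the 5 genes Chrna1, Chrnb1, Chrng, Ryr1 and Atp2a1, were higher and 0 were lower, where 4.65% of all probe sets were called, 1.42% higher and 3.24% lower. Counted as genes, 5 of 10 were higher, against 1.92% of all genes. The groups did not overlap in 8 of the 13 probe sets, each higher in GFP/+ cells, where 23% of all probe sets did not overlap, 12% higher and 11% lower. The unadjusted p passed 8 of 13 (19.7% of all) and the adjusted p alone 7 of 13 (8.76% of all). The median over the 10 genes was 0.56 log2 units, beside 0.0078 over all genes. PAX3-FKHR/GFP cells against the same GFP- cells gave 2 calls of 13, both higher, for Chrnb1 and Rapsn, where 5.35% of all probe sets were called, 1.99% higher and 3.36% lower. The groups did not overlap in 7 of 13, each higher in PAX3-FKHR/GFP cells, where 21.5% of all did not overlap, 11% higher and 10.6% lower. The unadjusted p passed 7 of 13 (18.8% of all) and the adjusted p alone 4 of 13 (8.95% of all). The median over the 10 genes was then 0.30 log2 units, beside 0.0072 over all genes. The 3 comparisons share samples in pairs, so their counts are not independent.

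**Figure D1:**
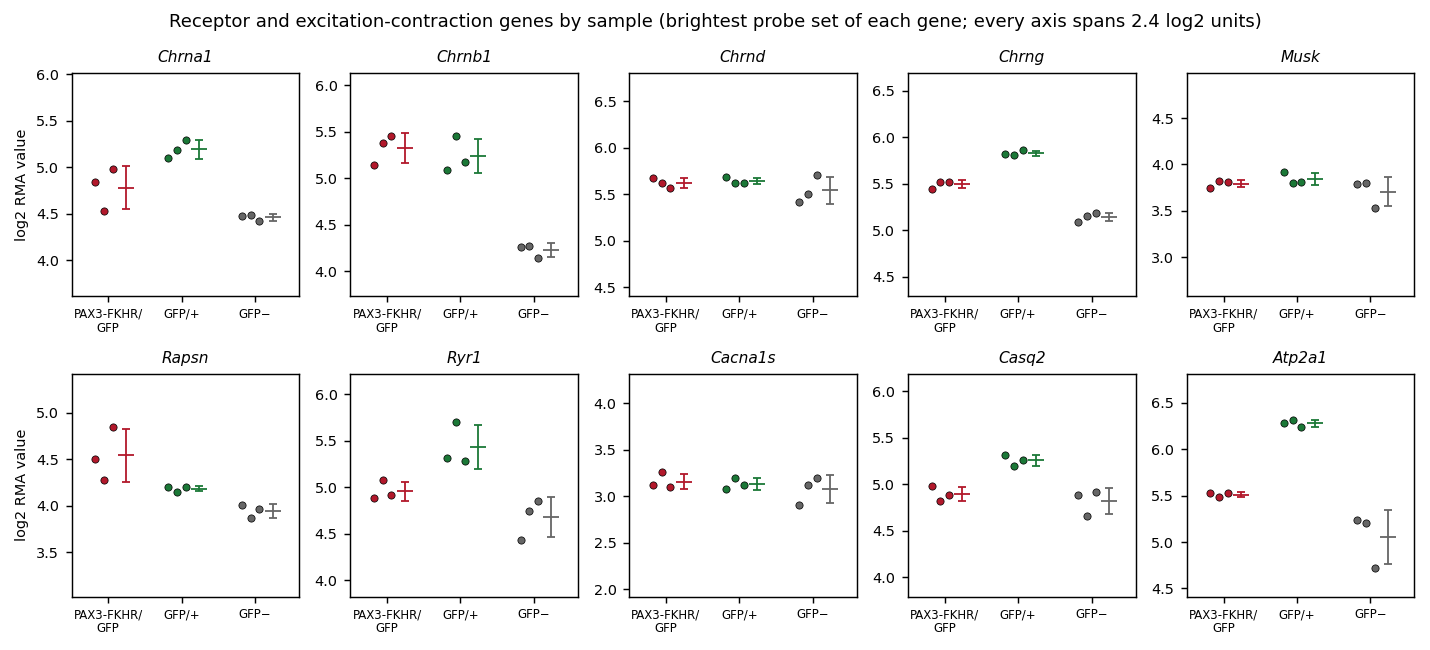
Log2 RMA value of the brightest probe set of each gene in the 9 samples, with PAX3-FKHR/GFP, GFP/+ and GFP- cells from left to right. Points are samples, the horizontal line is the group mean, its bars are 1 SD (n = 3), and every axis spans the same log2 range. Atp2a1 shows 3 separate levels with GFP/+ cells highest, Chrnb1 stands above 5 in both GFP positive groups and under 4.3 in GFP- cells, and Rapsn is highest in PAX3-FKHR/GFP cells.

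Among the receptor subunits, Chrna1 encodes the alpha subunit, which carries the acetylcholine binding site. Its log2 values were 4.84, 4.53 and 4.98 in PAX3-FKHR/GFP cells, 5.10, 5.19 and 5.30 in GFP/+ cells and 4.48, 4.49 and 4.42 in GFP- cells. The PAX3-FKHR/GFP cells lay between the other groups with no overlap, and their second array, at 4.53, came close to the GFP- arrays. Chrna1 was 1.66-fold higher in GFP/+ than in GFP- cells (difference 0.73 ± 0.083 log2 units, SE, adjusted p = 0.000275). With PAX3-FKHR the difference from GFP/+ cells was -0.41 ± 0.12 log2 units, which did not pass (adjusted p = 0.192).

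Chrnb1 encodes the beta subunit, a structural subunit that binds rapsyn when phosphorylated. It gave 5.15, 5.38 and 5.46 in PAX3-FKHR/GFP cells, 5.09, 5.45 and 5.18 in GFP/+ cells and 4.26, 4.28 and 4.15 in GFP- cells. Both GFP positive groups overlapped one another and stood apart from GFP- cells. Chrnb1 rose 2.14-fold in PAX3-FKHR/GFP cells (1.10 ± 0.10 log2 units, adjusted p = 2.43e-05) and 2.02-fold in GFP/+ cells (1.01 ± 0.10, adjusted p = 0.000144), each against GFP- cells. Between PAX3-FKHR/GFP and GFP/+ cells it differed by 0.085 log2 units, with a 95% interval of -0.18 to 0.35.

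Chrng encodes the gamma subunit of the fetal receptor, which the epsilon subunit replaces after birth. Its brightest probe set gave 5.45, 5.52 and 5.52 in PAX3-FKHR/GFP cells, 5.82, 5.81 and 5.86 in GFP/+ cells and 5.09, 5.15 and 5.19 in GFP- cells. The 3 groups formed 3 steps without overlap. The step between GFP/+ and GFP- cells was called, at 1.61-fold higher (0.69 ± 0.073 log2 units, adjusted p = 0.000173). The step between PAX3-FKHR/GFP and GFP/+ cells was -0.33 ± 0.082 log2 units (adjusted p = 0.092), and that between PAX3-FKHR/GFP and GFP- cells was 0.36 ± 0.081 log2 units, which passed the adjusted p (0.0176) but not the fold limit. The weaker Chrng probe sets stayed between 2.73 and 3.18 on all 9 arrays, so only 1 of 3 showed the steps.

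Chrnd encodes the delta subunit and gave 5.68, 5.62 and 5.57 in PAX3-FKHR/GFP cells, 5.68, 5.62 and 5.62 in GFP/+ cells and 5.42, 5.51 and 5.70 in GFP- cells. It was measured above the array's median throughout, and its groups overlapped in all 3 comparisons. The largest of its 3 differences was 0.10 log2 units, in GFP/+ against GFP- cells, with a 95% interval of -0.099 to 0.30.

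Of the proteins that gather receptors, Rapsn encodes rapsyn, the scaffold beneath receptor clusters. Its values were 4.51, 4.28 and 4.84 in PAX3-FKHR/GFP cells, 4.20, 4.15 and 4.20 in GFP/+ cells and 4.004, 3.86 and 3.96 in GFP- cells. The order was PAX3-FKHR/GFP, GFP/+ and GFP- without overlap. Rapsn alone of the 13 probe sets had PAX3-FKHR/GFP cells above GFP/+ cells without overlap, as 6.4% of all probe sets had. Against GFP- cells, whose values are among those not tested against background, Rapsn was 1.52-fold higher in PAX3-FKHR/GFP cells (0.60 ± 0.13 log2 units, adjusted p = 0.0125). Leaving out PAX3-FKHR/GFP replicate 3 ended this call, at 0.45 log2 units, and so did leaving out GFP- replicate 1, 2 or 3, at an adjusted p of 0.052, 0.0835 and 0.0612. Neither the difference from GFP/+ cells (0.36 ± 0.13, adjusted p = 0.333) nor that between GFP/+ and GFP- cells (0.24 ± 0.077, adjusted p = 0.1) passed.

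Musk encodes the receptor tyrosine kinase through which nerve-derived agrin induces clustering. It lay between 3.75 and 3.82 in PAX3-FKHR/GFP cells, between 3.80 and 3.92 in GFP/+ cells and between 3.53 and 3.80 in GFP- cells. The groups overlapped in every comparison, and the 95% intervals of the differences were -0.23 to 0.13 in PAX3-FKHR/GFP against GFP/+ cells, -0.071 to 0.35 in GFP/+ against GFP- cells and -0.12 to 0.29 in PAX3-FKHR/GFP against GFP- cells.

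**Figure D2:**
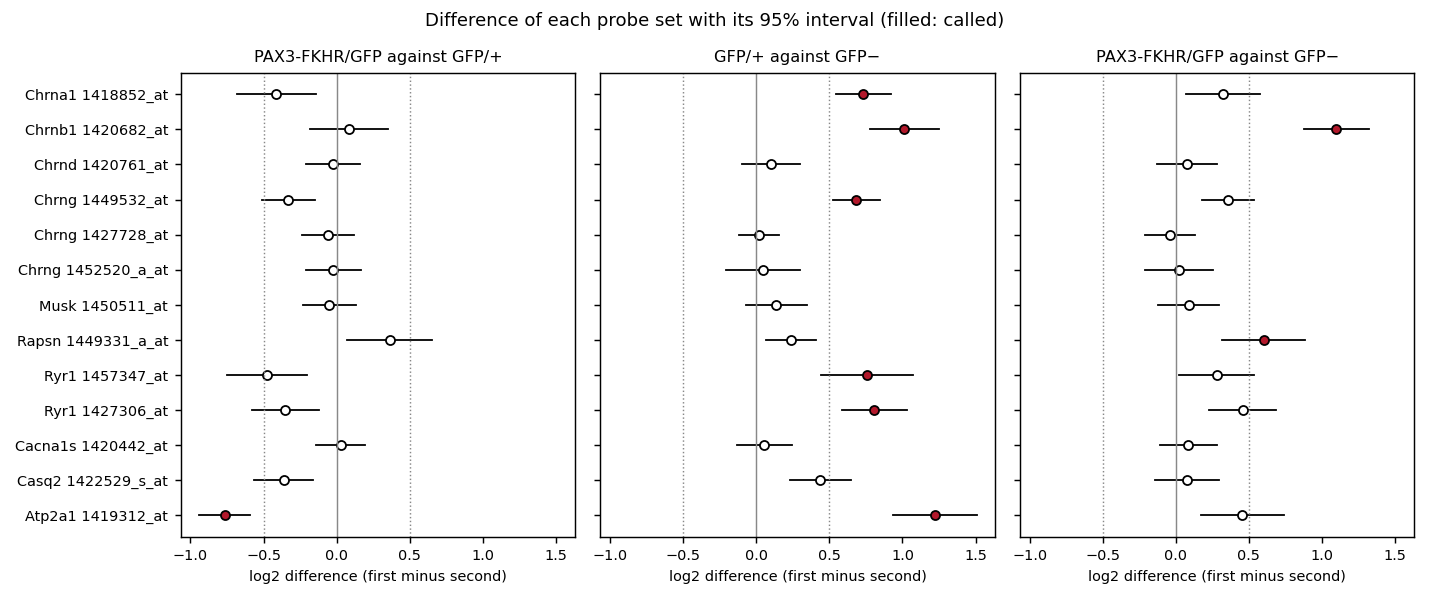
Log2 difference of each of the 13 probe sets (first group minus second) with its 95% interval in the 3 comparisons, and dotted lines at the fold limit of 0.5. Filled points are called: Atp2a1 alone on the left, 6 probe sets of 5 genes in the middle, and Chrnb1 and Rapsn on the right.

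In excitation-contraction coupling, Cacna1s encodes the voltage sensor, the pore-forming subunit of the skeletal dihydropyridine receptor. It read between 2.91 and 3.26 on all 9 arrays, with overlap in every comparison. Ryr1 encodes the skeletal ryanodine receptor that this sensor opens. Its brighter probe set gave 4.89, 5.08 and 4.92 in PAX3-FKHR/GFP cells, 5.32, 5.71 and 5.29 in GFP/+ cells and 4.44, 4.75 and 4.85 in GFP- cells. The other gave 4.80, 4.64 and 4.87 in PAX3-FKHR/GFP cells, 4.99, 5.21 and 5.16 in GFP/+ cells and 4.22, 4.24 and 4.47 in GFP- cells. Both probe sets put GFP/+ cells highest and PAX3-FKHR/GFP cells between, without overlap. In GFP/+ against GFP- cells both were called, at 1.69-fold (0.76 ± 0.14 log2 units, adjusted p = 0.00684) and 1.75-fold (0.81 ± 0.10, adjusted p = 0.000528). In PAX3-FKHR/GFP against GFP/+ cells they differed by -0.48 ± 0.12 (adjusted p = 0.111) and -0.35 ± 0.10 (adjusted p = 0.18), and neither was called.

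Casq2 encodes a calsequestrin, the calcium buffer of the sarcoplasmic reticulum, known as the cardiac form and found in embryonic skeletal muscle too. Its values were 4.98, 4.82 and 4.88 in PAX3-FKHR/GFP cells, 5.32, 5.20 and 5.26 in GFP/+ cells and 4.89, 4.65 and 4.92 in GFP- cells. GFP/+ cells were higher than both other groups without overlap, and those other groups overlapped. The difference between GFP/+ and GFP- cells, 0.44 ± 0.093 log2 units, passed the adjusted p (0.0152) and fell short of the fold limit, and that between PAX3-FKHR/GFP and GFP/+ cells was -0.36 ± 0.090 (adjusted p = 0.0927). Of 9 cardiac markers 6 were lower in GFP/+ than in GFP- cells, among them Myh6, a cardiac myosin heavy chain, at 4.13, 4.09 and 4.33 in GFP/+ cells against 7.79, 7.52 and 7.63 in GFP- cells, and their part in the Casq2 level of GFP- cells was not tested. The Casq2 probe set is of a kind that can be shared between transcripts.

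Atp2a1 encodes the calcium ATPase of fast skeletal sarcoplasmic reticulum, which refills the store after each contraction. Its values were 5.52, 5.48 and 5.52 in PAX3-FKHR/GFP cells, 6.28, 6.31 and 6.24 in GFP/+ cells and 5.24, 5.20 and 4.72 in GFP- cells. PAX3-FKHR/GFP cells lay between the other groups, without overlap and with little spread. Atp2a1 was lower in PAX3-FKHR/GFP cells than in GFP/+ cells by a difference of -0.77 ± 0.080 log2 units (95% interval -0.94 to -0.59, adjusted p = 0.00049). GFP/+ cells were 2.33-fold above GFP- cells (1.22 ± 0.13 log2 units, adjusted p = 0.00016). The remaining difference between PAX3-FKHR/GFP and GFP- cells was 0.46 ± 0.13 log2 units (adjusted p = 0.052) and was not called. Without any 1 of the 6 arrays compared, the difference from GFP/+ cells lay between -0.78 and -0.75 log2 units, with adjusted p-values of 0.0038 to 0.00935.

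Markers of muscle differentiation were read beside these genes. Of 18 such markers, none of them among the 10 genes, 14 were lower and 1 was higher in PAX3-FKHR/GFP cells than in GFP/+ cells, and 11 were higher and 1 was lower in GFP/+ than in GFP- cells. Their summed linear level was 2307 to 2621 in PAX3-FKHR/GFP cells, 4495 to 4847 in GFP/+ cells and 2093 to 2263 in GFP- cells. The PAX3-FKHR/GFP samples thus lay under every GFP/+ sample in that sum, as they did in Atp2a1. The part of these markers in the levels of the 10 genes was not tested. Of 9 dermomyotome markers 4 were higher and 2 were lower in PAX3-FKHR/GFP cells than in GFP/+ cells, with sums of 4423 to 5447 against 4012 to 4183. Of 5 smooth muscle markers 1 was lower in PAX3-FKHR/GFP cells than in GFP/+ cells, with sums of 843 to 901 against 1554 to 1611 in GFP/+ cells. That marker was Acta2, the brightest of the 5, at 8.91 to 9.10 in PAX3-FKHR/GFP cells and 10.17 to 10.20 in GFP/+ cells. The other 4 were not called. Of 5 sclerotome markers 1 was lower, with sums of 576 to 618 in PAX3-FKHR/GFP cells against 785 to 867 in GFP/+ cells. Of 10 neural markers 3 were higher and 1 was lower (1583 to 1822 in PAX3-FKHR/GFP cells, 1392 to 1528 in GFP/+ cells), and of 4 erythroid markers 1 was higher. Of 7 neural crest markers 1 was higher (4176 to 4963 in PAX3-FKHR/GFP cells, 3993 to 4123 in GFP/+ cells), and 0 of 9 cardiac and 0 of 5 endothelial markers were called. Some of these calls hung on single arrays. Leaving out PAX3-FKHR/GFP replicate 2 ended the sclerotome and erythroid calls, and so did dropping GFP/+ replicate 2 or replicate 3. Dropping either of those GFP/+ arrays also ended the crest call. The lower neural call was lost whichever GFP/+ array was dropped. The dermomyotome, smooth muscle and higher neural counts did not change.

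The myogenic regulators that act on E-boxes and MEF2 motifs did not move alike. Myog, encoding myogenin, gave 7.15, 7.29 and 7.18 in PAX3-FKHR/GFP cells, 8.21, 8.57 and 8.53 in GFP/+ cells and 3.77, 3.51 and 4.04 in GFP- cells. Myf6, encoding MRF4, gave 5.90, 5.96 and 5.96 in PAX3-FKHR/GFP cells, 7.03, 7.23 and 7.09 in GFP/+ cells and 4.62, 4.26 and 4.47 in GFP- cells. Both held the order of Atp2a1, with GFP/+ cells highest and no overlap. In PAX3-FKHR/GFP against GFP/+ cells Myog was 2.35-fold lower (adjusted p = 0.000115), Myf6 2.26-fold lower (adjusted p = 3.31e-05) and Mef2c, encoding a MEF2 factor, 1.52-fold lower (adjusted p = 0.00284, with 1 of 4 other probe sets lower and 3 not called at -0.39, -0.38 and -0.39 log2 units), while Myf5, the first of the family to appear in the somite, was 1.85-fold higher (adjusted p = 0.000283). Myod1 differed by -0.15 log2 units there (adjusted p = 0.749). All 5 were higher in GFP/+ than in GFP- cells, Myod1 by 0.68 log2 units (adjusted p = 0.0257, with a second probe set not called at 0.11) with the call lost without GFP/+ replicate 1 or 3 (adjusted p = 0.0978 and 0.107) or GFP- replicate 2 or 3 (0.107 and 0.103).

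The other acetylcholine receptor subunits, mostly those of neuronal receptors, included 11 measured genes, of which 0 were called in any of the 3 comparisons. Over these comparisons 1.31% to 2.63% of all genes were higher and 0.715% to 5.2% lower. Chrna7, a neuronal alpha subunit, was the brightest, at 6.52, 6.33 and 6.66 in PAX3-FKHR/GFP cells, 6.40, 6.28 and 6.10 in GFP/+ cells and 6.62, 6.70 and 6.71 in GFP- cells. GFP/+ cells lay under GFP- cells without overlap, and that difference of -0.42 ± 0.087 log2 units passed the adjusted p (0.0136) but not the fold limit. Chrna3 and Chrnb4, subunits of ganglionic receptors, were not called, and Chrne, the epsilon subunit of the adult receptor, stood between 3.60 and 4.05 on all 9 arrays.

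Of the genes listed as organizing the synapse, which include transcription factors of synaptic genes and Ephx1, whose place there is uncertain, 30 were measured, and 3 were higher and 1 lower in PAX3-FKHR/GFP cells than in GFP/+ cells, where 1.31% of all genes were higher and 0.715% lower. Etv5, an ETS factor acting downstream of FGF and neuregulin signals, was highest in PAX3-FKHR/GFP cells, at 8.01, 8.17 and 8.35 against 6.57, 6.66 and 6.55 in GFP/+ cells, and stood at 7.63, 7.58 and 7.52 in GFP- cells. GFP/+ cells were thus the lowest group in this probe set, where for Atp2a1 they were the highest. Etv5 was 2.99-fold higher with PAX3-FKHR (adjusted p = 1.22e-05), a second probe set was higher too (0.81 log2 units, adjusted p = 0.0427) and another was not called (0.48, adjusted p = 0.117). Col13a1, encoding a transmembrane collagen of muscle that helps the synapse mature, gave 7.71, 7.999 and 8.21 in PAX3-FKHR/GFP cells, 7.03, 7.17 and 7.002 in GFP/+ cells and 5.74, 5.95 and 5.76 in GFP- cells. Its order was that of Rapsn, without overlap, and it was 1.87-fold higher in PAX3-FKHR/GFP cells than in GFP/+ cells (adjusted p = 0.00241) and 2.38-fold higher in GFP/+ than in GFP- cells (adjusted p = 5.54e-06). Etv4, a second ETS factor, was 1.42-fold higher and Ephx1, encoding an epoxide hydrolase, 1.54-fold lower with PAX3-FKHR (adjusted p = 0.0335 and 0.0277). A second Etv4 probe set was not called (0.18 log2 units), and the call of Etv4 was lost without any 1 of the 6 arrays (adjusted p from 0.0985 to 0.151) and that of Ephx1 without any 1 of 5 of them, from 0.0717 to 0.154, the exception being the second PAX3-FKHR/GFP array.

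In GFP/+ against GFP- cells the same 30 genes gave 3 higher and 4 lower, where 1.92% of all genes were higher and 5.05% lower. Erbb3, a neuregulin receptor of Schwann cell precursors and of muscle, was 4.65-fold higher (adjusted p = 4.63e-08), with 8.58, 8.80 and 8.99 in PAX3-FKHR/GFP cells, 8.23, 8.34 and 8.37 in GFP/+ cells and 6.19, 5.97 and 6.13 in GFP- cells. Erbb3 is also 1 of the 7 neural crest markers measured, of which 5 were higher in GFP/+ than in GFP- cells with sums of 3993 to 4123 against 2322 to 2608, and the part of crest cells in its level was not tested. Those sums include Snai2, bright in both groups at 10.61 in GFP/+ cells and 10.56 to 10.77 in GFP- cells. Sox10 stood at 9.40 to 9.58 in GFP/+ cells and 5.86 to 6.15 in GFP- cells. A second, dimmer Erbb3 probe set was not called (0.12 log2 units). In PAX3-FKHR/GFP against GFP/+ cells neither Erbb3 probe set was called, the dimmer differing by 0.048 log2 units (adjusted p = 0.943). Sntb1, a syntrophin of the dystrophin complex, was 1.79-fold higher (adjusted p = 0.000749), though none of its other probe sets was called there. Agrn, encoding agrin, the nerve-derived ligand that acts through MuSK and is made by many tissues, gave 9.09, 9.25 and 9.44 in PAX3-FKHR/GFP cells, 9.26, 9.23 and 9.36 in GFP/+ cells and 9.83, 9.79 and 9.83 in GFP- cells. Agrn was 1.45-fold lower in GFP/+ than in GFP- cells (adjusted p = 0.000126), as were the laminin genes Lamb2 (1.69-fold, adjusted p = 0.001) and Lama4 (1.45-fold, adjusted p = 0.00175) and Etv5 (1.97-fold, adjusted p = 6.52e-06). A second probe set each of Agrn (0.0094 log2 units, adjusted p = 0.977) and Lama4 (-0.42, adjusted p = 0.103) was not called. Neither of the other Etv5 probe sets was called there (-0.12 and -0.24 log2 units, adjusted p = 0.676 and 0.224). Lama4 fell short of the fold limit without GFP/+ replicate 2 or GFP- replicate 2 (-0.49 log2 units each).

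PAX3-FKHR/GFP against GFP- cells gave 4 synapse genes higher and 4 lower of 30, where 2.63% of all genes were higher and 5.2% lower. Erbb3 was 6.46-fold, Col13a1 4.47-fold, Sntb1 1.74-fold and Etv5 1.52-fold higher (adjusted p = 2.19e-08, 3.18e-07, 0.000768 and 0.00119). Lamb2, Plec, which encodes the cytoskeletal linker plectin, Dag1, which encodes dystroglycan, and Agrn were 1.65-fold, 1.56-fold, 1.49-fold and 1.48-fold lower (adjusted p = 0.00147, 7.43e-05, 0.000992 and 0.00227), with Agrn short of the fold limit without PAX3-FKHR/GFP replicate 1 (-0.48 log2 units). The calls of Plec, Dag1 and Agrn rest on 1 probe set each, since the others were not called. Those others were 2 of Plec (-0.25 and -0.19 log2 units), 3 of Dag1 (-0.25, -0.39 and -0.47) and 1 of Agrn (-0.080). The -0.39 and -0.47 of Dag1 passed the adjusted p (0.0047 and 0.00468) and missed only the fold limit. Another Sntb1 probe set was higher too (0.70 log2 units, adjusted p = 0.00057), and the rest of Sntb1 were not called. The other probe sets of Etv5 (0.36 and 0.57) and Erbb3 (0.17) were not called. The brightest uncalled genes of the list, Crk, Crkl and Prkar1a, of which both Crk genes encode adaptors in the MuSK pathway, averaged above 10 in every group and stayed uncalled throughout.

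**Figure D3:**
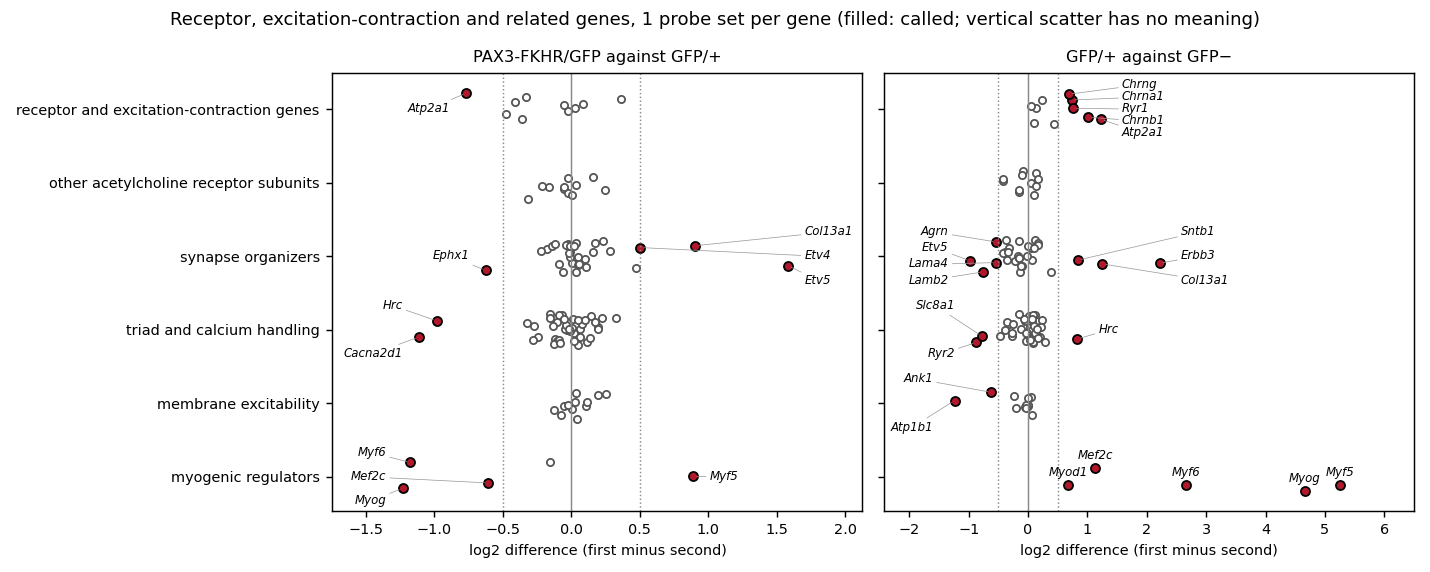
Log2 difference (first group minus second) of 1 probe set per gene for the 10 genes and 5 lists of related genes, in PAX3-FKHR/GFP against GFP/+ cells and in GFP/+ against GFP- cells. Filled and named points are called, and dotted lines mark the fold limit of 0.5. Atp2a1, Hrc and Cacna2d1 lie on the lower side with Myog, Myf6 and Mef2c on the left, and 5 of the 10 genes lie on the higher side on the right.

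Of the other genes of the triad and of calcium handling 41 were measured, with 0 higher and 2 lower in PAX3-FKHR/GFP cells than in GFP/+ cells. Of all genes 1.31% were higher and 0.715% lower there. Cacna2d1 encodes the alpha2delta subunit that accompanies the voltage sensor. It gave 5.11, 5.48 and 5.54 in PAX3-FKHR/GFP cells, 6.43, 6.57 and 6.47 in GFP/+ cells and 6.55, 6.49 and 6.41 in GFP- cells. Only PAX3-FKHR/GFP cells stood apart, at 2.16-fold below GFP/+ cells (adjusted p = 0.00049) and 2.15-fold below GFP- cells (adjusted p = 5.24e-05). A second Cacna2d1 probe set was lower as well, by a difference of -0.58 log2 units against GFP/+ cells (adjusted p = 0.0489), and the others were not called. Hrc encodes the histidine-rich calcium binding protein of the sarcoplasmic reticulum.

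Hrc gave 4.83, 4.78 and 4.44 in PAX3-FKHR/GFP cells, 5.81, 5.43 and 5.76 in GFP/+ cells and 4.80, 4.83 and 4.89 in GFP- cells. GFP/+ cells were high and the other groups overlapped. Hrc was 1.98-fold lower in PAX3-FKHR/GFP cells than in GFP/+ cells (adjusted p = 0.003) and 1.77-fold higher in GFP/+ than in GFP- cells (adjusted p = 0.000648). Both lower calls with PAX3-FKHR, of Hrc and of Cacna2d1, were made without any 1 of the 6 arrays.

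In GFP/+ against GFP- cells Hrc was the 1 triad gene of 41 called higher, and 2 were lower. Of all genes 1.92% were higher and 5.05% lower in that comparison. Ryr2, the ryanodine receptor of heart, gave 3.16, 3.29 and 3.17 in PAX3-FKHR/GFP cells, 3.10, 3.20 and 3.26 in GFP/+ cells and 4.16, 4.08 and 3.94 in GFP- cells. Slc8a1, the sodium-calcium exchanger, gave 4.07, 4.26 and 4.20 in PAX3-FKHR/GFP cells, 3.99, 3.83 and 4.04 in GFP/+ cells and 4.79, 4.51 and 4.90 in GFP- cells. In these probe sets GFP- cells were highest and did not overlap with either GFP positive group, the reverse of Ryr1. Ryr2 lay under the array's median on every array, and Slc8a1 did so in both GFP positive groups. Whether these low values stood above background was not tested. Ryr2 was 1.83-fold and Slc8a1 1.72-fold lower in GFP/+ than in GFP- cells (adjusted p = 8.66e-05 and 0.00141). Of 3 other Slc8a1 probe sets 1 was lower as well (-0.89 log2 units, adjusted p = 0.000757) and 2 were not called (0.047 and -0.027), and a second one of Ryr2 was not called (0.0011 log2 units). Cardiac markers were high in the same GFP- cells (sums of 179 to 184 in GFP/+ cells against 803 to 858 in GFP- cells), and their part in both differences was not tested.

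PAX3-FKHR/GFP against GFP- cells gave 0 triad genes higher and 4 lower, where 2.63% of all genes were higher and 5.2% lower. The lower genes were Cacna2d1, Ryr2 (1.80-fold, adjusted p = 5.03e-05), Slc8a1 (1.47-fold, adjusted p = 0.00804) and Casq1, the fast skeletal calsequestrin (1.44-fold, adjusted p = 0.00714). A second Ryr2 probe set was not called there (0.045 log2 units). Another Slc8a1 probe set was lower as well (-0.67 log2 units, adjusted p = 0.00127), and the rest were not called (0.061 and -0.11). Another Cacna2d1 probe set was lower too (-0.59 log2 units, adjusted p = 0.00502), and the rest were not called. Casq1 gave 5.75, 5.59 and 5.41 in PAX3-FKHR/GFP cells, 5.61, 5.71 and 5.84 in GFP/+ cells and 6.08, 6.01 and 6.24 in GFP- cells, so that its GFP- samples were highest, unlike those of Casq2. Casq1 was no longer called once PAX3-FKHR/GFP replicate 3 (-0.44 log2 units) or GFP- replicate 3 (adjusted p = 0.0522) was left out, nor Slc8a1 once GFP- replicate 1 or 3 was (adjusted p = 0.0544 and 0.0509). Atp2a2, the calcium ATPase of heart, slow muscle and most other cells, was the brightest uncalled gene, at 11.85 to 12.22 in PAX3-FKHR/GFP cells, 12.01 to 12.13 in GFP/+ cells and 11.996 to 12.26 in GFP- cells. The ubiquitous ATPase gene thus overlapped in all comparisons where Atp2a1 formed 3 levels. Fkbp1a, which encodes a ryanodine receptor binding protein, and Mtm1, a phosphatase gene of the triad, averaged above 11 in each group and were not called.

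Of 12 genes of membrane excitability 0 were called in PAX3-FKHR/GFP against GFP/+ cells, where 1.31% of all genes were higher and 0.715% lower. Atp1b1, a subunit of the sodium pump, was 2.32-fold lower in PAX3-FKHR/GFP and 2.36-fold lower in GFP/+ than in GFP- cells (adjusted p = 1.89e-06 and 4.46e-06). Ank1, an ankyrin of red cells and of muscle, was 1.54-fold lower in both (adjusted p = 0.0027 and 0.00585), and fell short of the fold limit in both without GFP- replicate 1 (-0.49 log2 units). None of 3 other Ank1 probe sets was called in these comparisons, where they differed by -0.043, -0.19 and -0.020 log2 units in PAX3-FKHR/GFP against GFP- cells and by -0.22, -0.095 and 0.14 in GFP/+ against GFP- cells, whereas of 4 other Atp1b1 probe sets 2 were lower in PAX3-FKHR/GFP against GFP- cells and 3 in GFP/+ against GFP- cells. Erythroid markers stood far higher in GFP- cells, as given above, and their part in the Ank1 level was not tested. Kcnj11, a potassium channel gene, and the ankyrin gene Ank3 were the brightest not called in any comparison.

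**Figure D4:**
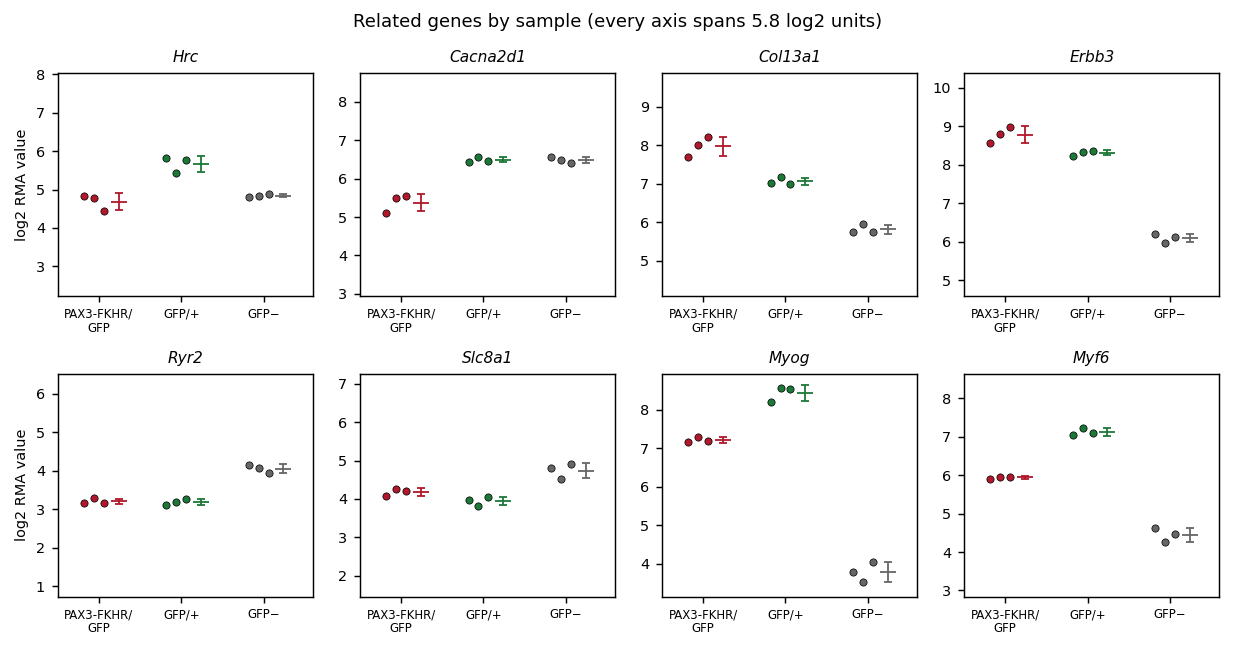
Log2 RMA values of 8 related genes in the 9 samples, with PAX3-FKHR/GFP, GFP/+ and GFP- cells from left to right, the group mean as a line and 1 SD as bars (n = 3). Hrc, Myog and Myf6 are highest in GFP/+ cells, Cacna2d1 is low in PAX3-FKHR/GFP cells alone, Col13a1 and Erbb3 are highest in PAX3-FKHR/GFP cells, and Ryr2 and Slc8a1 are highest in GFP- cells. Erbb3 was not called in PAX3-FKHR/GFP against GFP/+ cells.

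The genes whose pattern over the 9 samples was most like that of Chrnb1 and Atp2a1 were sought among 688 genes with a gap of at least 1 log2 unit between group means, a gap that only those 2 of the 10 genes reached. The measure of likeness was Pearson's r over 9 samples that share 3 groups, so that any gene with the same order of groups scores high, and it is given as a description. Chrnb1 was most like Ebf3, an early B-cell factor gene (r = 0.991), Eya2, a phosphatase and transcription cofactor of muscle progenitors (0.987), and Phactr1, a regulator of actin and phosphatase (0.981). Ebf3 stood at 7.88, 8.11 and 8.12 in PAX3-FKHR/GFP cells, 7.84, 8.05 and 7.99 in GFP/+ cells and 6.88, 6.76 and 6.62 in GFP- cells, both GFP positive groups again overlapping. Atp2a1 was most like Adgrg6, an adhesion G protein-coupled receptor gene (0.966), Myl1, a skeletal myosin light chain gene (0.965), and Acta1, the skeletal actin gene (0.964). Myl1 gave 4.44, 4.44 and 4.39 in PAX3-FKHR/GFP cells, 5.62, 5.84 and 5.70 in GFP/+ cells and 3.97, 4.08 and 3.90 in GFP- cells, which were the 3 levels of Atp2a1 in the same order.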

How the data were processed

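Cells were sorted from interlimb somites and hybridized in 9 arrays, as 3 groups of 3 given by the labels. The authors deposited log2 expression values per probe set made with RMA, which corrects background, equalizes the distributions of the arrays and summarizes probes, after a two-cycle 3′ amplification. The RMA version is not given in the sources used here, nor is the set of arrays normalized as 1. Since RMA equalizes the arrays, a change common to most transcripts of a group cannot appear. The labels' treatment protocol speaks of forelimb buds, and all their other fields of somites, as which the samples were taken.

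Each comparison was fitted in R 4.3.3 by limma 3.58.1, with lmFit and a trended eBayes, on its 6 samples over 45037 probe sets, 64 control probe sets being left out. P-values are two-sided and were adjusted by Benjamini-Hochberg across these probe sets, and errors after ± are standard errors. They measure the spread between pooled samples only. Probe sets were named by the platform annotation, 34945 with 1 symbol, 932 with several and 9160 unnamed here. A gene was read from the probe set with 1 symbol and the highest mean. The study's absence filter was not applied. It used a local pooled error test, run as an alternative beside others on samples, scaling, dim probe sets, fold limit and left-out arrays. The fits were tested on simulated data.

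All 10 genes are named. Of each related list, the text names up to 4 called genes per direction and comparison with the largest differences, up to 3 uncalled with the highest means, and all myogenic regulators. Of 108 list genes written 99 were measured. For genes with a gap of at least 1 log2 unit between group means, the 3 most correlated genes are named. Chrne was picked out after its values were seen. The genes and lists were chosen with earlier results of these data known.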

Additional observations from a re-analysis of the deposited data

How the results depend on the processing

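Under the alternatives run, 153 of 156 results of PAX3-FKHR/GFP against GFP/+ cells, 150 of 156 of GFP/+ against GFP- cells and 144 of 153 of PAX3-FKHR/GFP against GFP- cells kept their direction and their side of the threshold. A limit of 2-fold left 0 of 13 probe sets called in PAX3-FKHR/GFP against GFP/+ cells, 2 in GFP/+ against GFP- cells and 1 in PAX3-FKHR/GFP against GFP- cells. In the last comparison, dropping the fold limit gave 4 calls, and a filter for log2 values of at least 5 in at least 3 samples gave 1, as only 4 of the 13 probe sets then entered the fit. Leaving out 1 array gave 1 call throughout in PAX3-FKHR/GFP against GFP/+ cells, 6 throughout in GFP/+ against GFP- cells, and 1 to 3 in PAX3-FKHR/GFP against GFP- cells.

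The changes of sign were all in differences near 0. Without 1 array, Cacna1s ranged from -0.020 to 0.062 and Chrnd from -0.052 to 0.0039 in PAX3-FKHR/GFP against GFP/+ cells, and Cacna1s from -0.028 to 0.12 in GFP/+ against GFP- cells. In PAX3-FKHR/GFP against GFP- cells Casq2 ranged from -0.0075 to 0.12 and Musk from -0.0028 to 0.13, and the local pooled error test put Casq2 at -0.0034. By the mean over its 3 probe sets Chrng was not called in GFP/+ against GFP- cells (0.25 log2 units), since both weaker probe sets are averaged in.

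Whether the replicate numbers pair the samples is not given by the labels and was not settled here. Same-numbered arrays correlated at -0.096 to 0.10 in their deviations. The fit with the number as a block called 1, 6 and 2 of the 13 probe sets, as without it. Over all probe sets the block called 603, 2122 and 2451, beside 611, 2095 and 2411 without it. The 611 became 139 at 2-fold, 358 without PAX3-FKHR/GFP replicate 2, 383 without GFP/+ replicate 2 and 386 without GFP/+ replicate 3. Musk, Cacna1s and the weaker Chrng probe sets read under the array's median throughout, and their signal over background was not tested.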
